A study of Mus musculus with 32 samples.

Results

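The 8 genes Lrp2, Cubn, Amn, Dab2, Clcn5, Ocrl, Lrpap1 and Folr1, which encode the receptors and helper proteins of protein uptake in the proximal tubule, were taken by symbol from the 54532 genes of the count table. Each symbol matched 1 gene, and all 8 passed the filter on low counts in every comparison. Counts were between 105 (Ocrl) and 78784 (Lrp2) per library. The kidneys came from wild-type C57bl/6 mice, 6 to 8 weeks old by the study's methods, in 8 groups of 4 animals, 4 groups of each sex, taken at Day 0 or at Day 2, Day 3 or Day 5 after a single intraperitoneal dose of 20 mg/kg cisplatin, the DNA-crosslinking chemotherapy drug that injures the tubule. GEO lists cisplatin as the treatment of the Day 0 females and nothing for the Day 0 males. The study describes Day 0 mice as healthy, and both sexes served here as controls. Every library was kidney RNA, labelled as that of 1 mouse, so that fewer cells of a type and less RNA per cell cannot be told apart.

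Megalin (Lrp2) and cubilin (Cubn) are large receptors of the apical membrane that bind filtered albumin, vitamin carriers, hormones and other small proteins. Cubilin has no membrane-spanning segment and reaches the surface with amnionless (Amn). Dab2 is the adaptor that links the tail of megalin to the clathrin coat. The chloride/proton exchanger ClC-5 (Clcn5) supports acidification of endosomes, and the inositol 5-phosphatase encoded by Ocrl acts in endosome and lysosome traffic. In humans, loss of either of these causes urinary loss of low-molecular-weight proteins. The receptor-associated protein (Lrpap1) is a chaperone that keeps megalin from binding ligands during its folding, and the folate receptor Folr1 recovers filtered folate.

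Several libraries stood apart or went against their labels. Total counts ran from 16502107 to 35961325 per library. Mitochondrial transcripts took 77.9 to 79.8% of the counts in 4 Day 5 libraries (males 2, 3 and 4, female 2), and 4.49 to 42.5% elsewhere. In the library labelled male Day 5 mouse 1, Xist, the transcript of the inactive X chromosome, reached 4153 counts, against 59 to 260 counts in the other male Day 5 mice, and the mitochondrial share was 42.5%. Its Y-linked genes had 387 counts, against 447 to 545 in these other males and 0 in the Day 5 females. These are raw counts, and mitochondrial transcripts took 78.9 to 79.8% of the counts in these other males. Relative to the remaining counts, the Y-linked level of mouse 1 was thus well below theirs. Whether this library holds RNA of more than 1 mouse was not tested. The tests, the levels relative to the tubule list, the list counts and the likeness values that rest on this library are given with it, and mostly also without it. Controls also held counts of the other sex, with 5 to 221 Y-linked counts in the Day 0 females against 0 in every treated female, and 242 counts of Xist in male Day 0 mouse 4 against 0 to 50 in the other Day 0 males, and their part in the results was not tested. Cdkn1a, a p53 target, was at 10.4 counts scaled to library size (CPM) in male Day 2 mouse 1, as at Day 0, and at 22.0 CPM in female Day 3 mouse 2, against 288 to 347 CPM in the other females of that day. For gene length, the log2 level of each gene was taken as its deviation from its own mean over the 32 libraries. The difference in the median of these deviations between 817 genes of 12 kb or more and 2580 genes of 1 to 2 kb was -0.78 to -0.04 in male and -1.03 to 0.31 in female Day 0 libraries, where female mouse 4 alone was above 0. It was 0.44 to 0.54 at male Day 3 and -0.00197 to 0.33 at female Day 3. Markers of neighbouring tissue differed in the females: 7 hepatocyte genes summed to 11160 CPM in Day 0 mouse 2, against 15.3 to 358 CPM in every other library, and 5 adrenal cortex genes summed to 25.2 to 2046 CPM at Day 3 and 509 to 1365 CPM at Day 5, against 3.02 to 324 CPM at Day 0. None of the adrenal or hepatocyte genes tested was called against Day 0 in females, and their part in the changes of the members was not tested. All 22 genes of a proximal tubule marker list were counted in every library.

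The promoters of both receptors and of the partner of cubilin are shown because the receptor transcripts were alike over the libraries, while Amn was called lower at male Day 3, where Cubn was called higher. The 250 bases before the RefSeq start of each gene are given 5′ to 3′ on the strand of the gene, from RefSeq on GRCm38.p6. Capitals mark the GC box GGGCGG, found on either strand, and the E-box CACGTG.
Lrp2 (chr2:69586030-69586279, minus strand): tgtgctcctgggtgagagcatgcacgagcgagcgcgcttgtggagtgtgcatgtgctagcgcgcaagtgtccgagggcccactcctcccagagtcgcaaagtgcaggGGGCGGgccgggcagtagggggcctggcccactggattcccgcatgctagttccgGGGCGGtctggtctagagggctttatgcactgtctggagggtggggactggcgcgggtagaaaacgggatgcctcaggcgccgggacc
Cubn (chr2:13491877-13492126, minus strand): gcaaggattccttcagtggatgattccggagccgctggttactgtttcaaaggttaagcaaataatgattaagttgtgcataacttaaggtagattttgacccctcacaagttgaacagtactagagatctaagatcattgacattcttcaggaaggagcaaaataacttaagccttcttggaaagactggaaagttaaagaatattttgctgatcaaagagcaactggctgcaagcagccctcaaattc
Amn (chr12:111270846-111271095, plus strand): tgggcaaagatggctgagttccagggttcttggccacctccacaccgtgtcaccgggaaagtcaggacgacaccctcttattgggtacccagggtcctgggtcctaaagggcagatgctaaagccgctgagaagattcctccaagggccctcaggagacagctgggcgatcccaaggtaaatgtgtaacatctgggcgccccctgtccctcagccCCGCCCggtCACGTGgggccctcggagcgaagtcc
The Lrp2 promoter held 2 GC boxes, that of Amn 1 GC box, as CCGCCC, and 1 E-box, and that of Cubn neither. GC content was 66.4% for Lrp2, 61.2% for Amn and 39.6% for Cubn. In all 32851 promoter regions of this set, searched over the same 250 bases before the start, 32.7% held GGGCGG or its reverse complement and 6.02% held CACGTG. These matches describe the letters only.

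The 8 protein-coding genes lie on 6 chromosomes and differ in length. On GRCm38, Lrp2 spans chromosome 2 from 69424340 to 69586065 and Cubn spans chromosome 2 from 13276338 to 13491813, and the table gives them exon lengths of 16.7 and 14.9 kb. Amn lies on chromosome 12 from 111271095 to 111276426 and is the shortest at 1.84 kb. Folr1 lies on chromosome 7 from 101858331 to 101870788, with 2.30 kb, and Lrpap1 on chromosome 5 from 35091501 to 35105766, with 4.12 kb. Dab2 spans chromosome 15 from 6299788 to 6440712, with 7.34 kb. Clcn5 (7153810 to 7319358) and Ocrl (47912387 to 47965868) are X-linked and measure 11.5 and 9.49 kb. Folr1 overlaps Anapc15 on the other strand, which had at most 193 counts in any library, against at least 257 for Folr1, and whether strand was used in counting is not stated in the sources used here.

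Per length, the folate receptor was the most abundant member and Ocrl the least. In Day 0 males the FPKM (fragments scaled by gene length and library size) of Folr1 was 277 ± 161 (SD, n = 4 in each group of this paragraph), followed by Amn at 170.2 ± 58.6, Lrpap1 at 118 ± 18.5 and Lrp2 at 56.4 ± 3.61. Dab2 followed at 41.8 ± 3.69, Cubn at 16.4 ± 2.20, Clcn5 at 8.47 ± 2.53 and Ocrl at 1.20 ± 0.369. Folr1 and Amn, and Amn and Lrpap1, overlapped between mice, while every later neighbour in this order was apart in all 4 male mice. Day 0 females showed the same order, with Lrp2 at 71.4 ± 14.0 FPKM and Cubn at 21.9 ± 4.32, but there Lrp2 and Dab2 overlapped as well. At Day 3 Lrpap1 was above Amn in the mean of either sex, with overlapping mice. Dab2 exceeded Lrp2 in the mean only in Day 5 males (17.1 ± 10.1 against 15.8 ± 20.8 FPKM), with overlapping mice.

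Megalin overlapped its Day 0 level at Day 2 and Day 3 and was far lower in 3 of the 4 Day 5 males. Lrp2 was at 1065, 983, 887 and 916 CPM in male Day 0 mice 1 to 4, at 1343, 1084, 1363 and 700.4 CPM at Day 2, and at 889, 1491, 1102 and 1754 CPM at Day 3. In Day 5 males it was at 776, 146, 71.9 and 45.1 CPM. All Day 5 males were below all Day 0 males, and mouse 1 stood well above the other 3. In females Lrp2 was at 1135, 916, 1324 and 1405 CPM at Day 0, at 1193, 854, 639 and 1216 CPM at Day 2, at 606, 1759, 832 and 575 CPM at Day 3, and at 450.3, 397, 619.5 and 1090.3 CPM at Day 5. The female groups overlapped throughout, and female Day 3 mouse 2, the mouse of low Cdkn1a, had the highest level of all 32 libraries. The log2 fold change against Day 0 was 0.23 (SE 0.230) at Day 2, 0.44 (SE 0.220) at Day 3 and -1.85 (SE 0.785) at Day 5 in males, and -0.30 (SE 0.311), -0.36 (SE 0.373) and -0.91 (SE 0.361) in females. None passed the edgeR test, with adjusted p between 0.123 and 0.568, and of 9 other settings 3 called the fall at male Day 5 (1 fit over all groups, the replicate block and voom).

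Cubilin was the one member called higher against Day 0 by edgeR with the fit of each comparison alone. In males Cubn was at 271, 258, 269 and 203 CPM at Day 0, 346, 344, 409 and 314 CPM at Day 2, 305, 410.0, 379 and 471 CPM at Day 3, and 230.4, 40.9, 20.1 and 19.0 CPM at Day 5. The Day 2 and Day 3 males were all above the Day 0 males, and Day 5 males overlapped Day 0 only through mouse 1. The log2 fold change was 0.65 (SE 0.169, adjusted p = 0.0287) at male Day 3, a rise, and 0.51 (SE 0.163, adjusted p = 0.0873) at male Day 2. In females it was at 281, 273, 380.1 and 373 CPM at Day 0 and 196, 361, 241 and 219 CPM at Day 3, with a log2 fold change of -0.38 (SE 0.236, adjusted p = 0.297). Female Day 2 mice (429.7, 209, 181 and 332 CPM) and Day 5 mice (182, 141, 274 and 385 CPM) overlapped Day 0 as well. The difference between the sexes in the change at Day 3 was 1.0 (SE 0.288) on the log2 scale and did not pass the test (unadjusted p = 0.00336, adjusted p = 0.488).

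Amnionless, the partner that carries cubilin to the surface, fell at Day 3 in both sexes, opposite in sign to cubilin in males only. Amn was at 261, 302, 466 and 246 CPM in Day 0 males and at 156, 170.4, 163 and 170.3 CPM in Day 3 males, and at 337, 445, 428 and 183 CPM in Day 0 females and 108, 135, 117 and 141 CPM in Day 3 females. The Day 3 mice of either sex were below all their Day 0 mice. The log2 fold change was -0.96 (SE 0.212, adjusted p = 0.0186) in males and -1.49 (SE 0.279, adjusted p = 0.0465) in females. At Day 2 it was at 196, 202, 184 and 243 CPM in males, all just below Day 0, and at 379.9, 133, 153 and 186 CPM in females, which overlapped it. In Day 5 males Amn was at 121, 34.0, 20.8 and 25.8 CPM and fell by 2.61 on the log2 scale (SE 0.564, adjusted p = 0.0163). In Day 5 females it was at 151, 91.7, 308 and 212 CPM and overlapped Day 0.

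The folate receptor followed Amn. Folr1 was at 495, 504, 1171 and 403 CPM in Day 0 males, 351, 324, 292 and 381 CPM at Day 2, 292, 322, 298 and 321 CPM at Day 3, and 239.8, 90.8, 41.4 and 43.8 CPM at Day 5. Every treated male was below every Day 0 male. In females it was at 610.3, 852, 1243 and 330.4 CPM at Day 0, 593, 226, 240.4 and 303 CPM at Day 2, 210.3, 300.2, 229 and 255 CPM at Day 3, and 238, 132, 543 and 402 CPM at Day 5, and only the Day 3 group was apart from Day 0. It fell in these 3 groups, with log2 fold changes of -1.07 (SE 0.328, adjusted p = 0.0453) at male Day 3, -1.62 (SE 0.370, adjusted p = 0.0479) at female Day 3 and -2.59 (SE 0.630, adjusted p = 0.0229) at male Day 5.

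Lrpap1, the chaperone of megalin, was at 545, 526, 535 and 385 CPM in Day 0 males and at 273, 121, 80.1 and 94.2 CPM in Day 5 males, with no overlap, and fell by 1.76 on the log2 scale (SE 0.399, adjusted p = 0.0186). At Day 3 it was at 334, 405, 385 and 396 CPM in males and 279.9, 405, 327 and 319 CPM in females, against 536, 543, 630.0 and 380.3 CPM in Day 0 females. These overlapped Day 0 through mouse 4 of the controls, and the log2 fold changes of -0.39 (adjusted p = 0.0892) and -0.66 (adjusted p = 0.0805) did not pass the edgeR test, while DESeq2 and voom called both.

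Dab2 and Clcn5, the adaptor and the endosomal exchanger, changed at male Day 5 only among the comparisons with Day 0. Dab2 was at 319, 293, 288 and 354 CPM in Day 0 males, between 228 and 359.9 CPM at Days 2 and 3, and at 234, 89.0, 99.0 and 68.6 CPM at Day 5, a fall of 1.30 on the log2 scale (SE 0.368, adjusted p = 0.0374). Clcn5 was at 81.9, 82.9, 138 and 91.6 CPM in Day 0 males and at 68.1, 24.8, 21.9 and 24.8 CPM at Day 5, and fell by 1.44 (SE 0.382, adjusted p = 0.0302). In either gene the Day 5 males did not overlap Day 0, and mouse 1 was nearest to it. In females Dab2 lay between 176 and 418 CPM and Clcn5 between 40.1 and 129.8 CPM over all days, with overlapping groups.

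Ocrl, the other endosomal gene, was the member that stayed apart from the rest. It was at 13.6, 11.3, 6.61 and 15.2 CPM in Day 0 males, 19.1, 17.5, 20.3 and 17.4 CPM at Day 2, 17.2, 16.2, 18.3 and 18.4 CPM at Day 3, and 16.4, 18.0, 22.4 and 14.7 CPM at Day 5. All Day 2 and Day 3 males were above all Day 0 males. In females it was at 9.73, 9.18, 7.06 and 17.1 CPM at Day 0 and at 16.6, 19.4, 17.8 and 17.7 CPM at Day 3, where only Day 0 mouse 4 overlapped. Its log2 fold change against Day 0 was 0.49 to 0.71 over the 6 comparisons and passed the edgeR test in none of them (adjusted p between 0.0921 and 0.432). Other settings called it higher: voom in all 6 comparisons (adjusted p between 0.000921 and 0.0364), 1 fit over all groups at male Day 2 and Day 5 and female Day 2 and Day 3 (adjusted p between 0.0184 and 0.0478), and DESeq2 at male Day 2 (adjusted p = 0.0465). With offsets for gene length and GC content it was at 0.36, 0.19 and 0.66 at male Day 2, Day 3 and Day 5 and at 0.33, 0.38 and 0.38 in females, with no call (adjusted p between 0.0654 and 0.435).

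**Figure D1:**
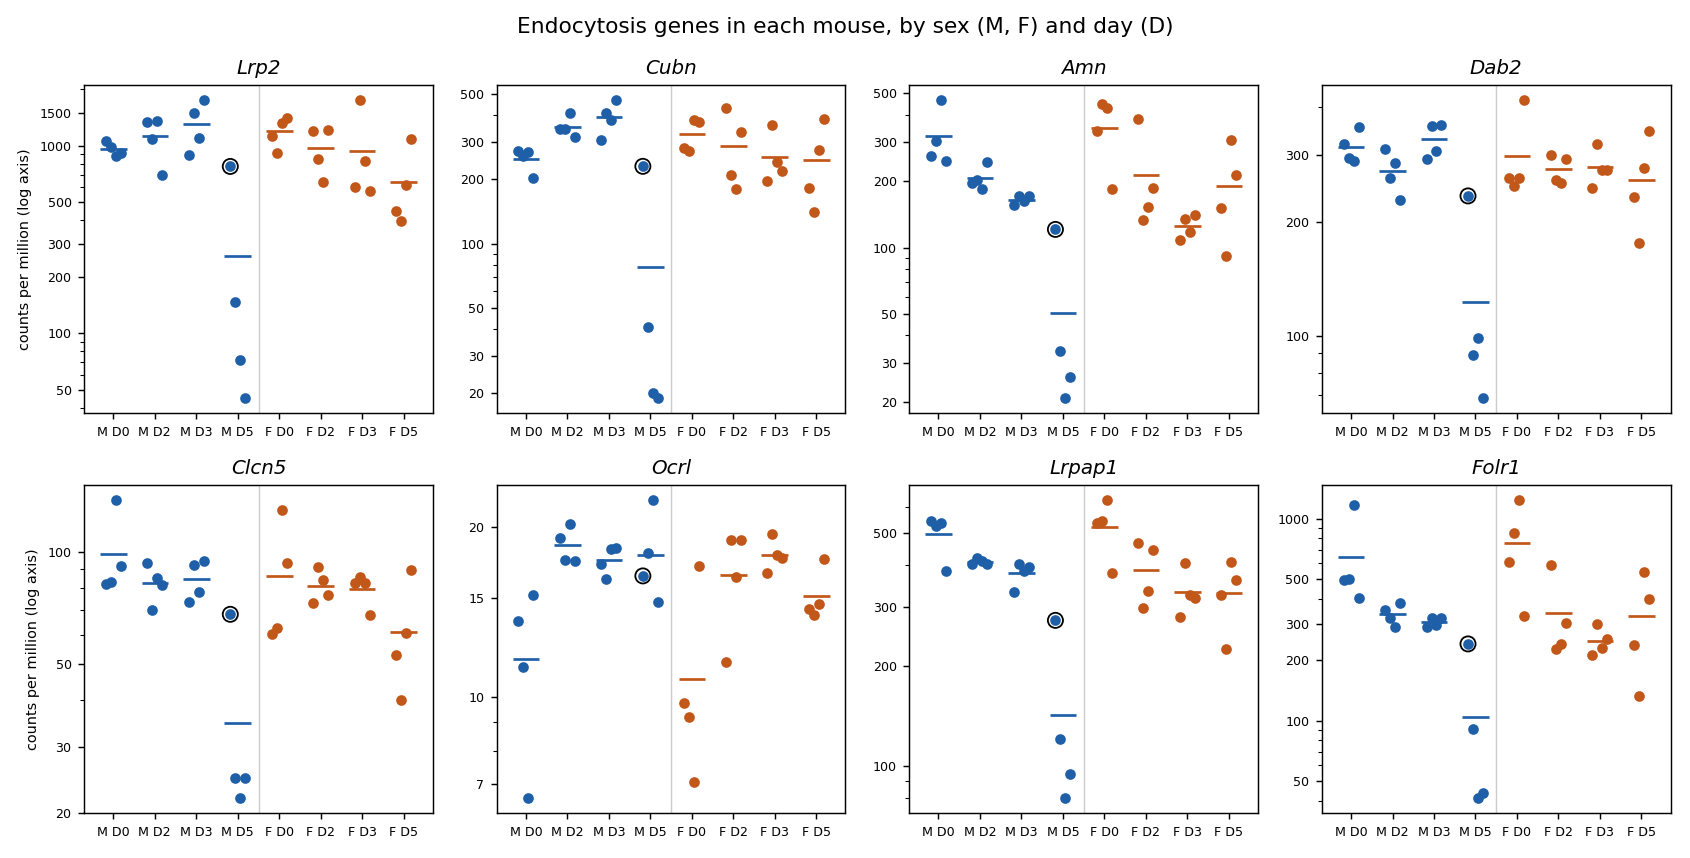
CPM (log axes) of the 8 genes in each mouse, 4 points per group in order of mouse number, males in blue and females in orange, with a bar at the group mean. The circled point is male Day 5 mouse 1, which for Lrp2 is at 776 CPM against 45.1 to 146 CPM in the other 3.

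Counted over the 8 members, the calls gathered at Day 3 and at male Day 5. With edgeR, 1 member rose (Cubn) and 2 fell (Amn, Folr1) at male Day 3, where 24.5% of the 15908 genes tested were called, 11.4% higher and 13.1% lower. At female Day 3, 2 fell (Amn, Folr1), with 5.54% of 17065 genes called and 4.28% called lower. At male Day 5, 5 of 8 fell and none rose, with 19.2% of 14969 genes called and 10.2% called lower, and the median log2 fold change was -1.70 for the members and 0.04 for all genes tested. At male Day 2, 0 were called (3.16% of all genes), with 4 under an unadjusted p of 0.05 (29% of all genes), 3 called by DESeq2 (18.3% of all genes) and 5 by voom (46.4%). At female Day 2, 0 were called (1.93%), with 1 under an unadjusted p of 0.05 (25.3%), 0 by DESeq2 (12.9%) and 4 by voom (50.3%). At female Day 5, 0 were called (0.258%), with 4 under an unadjusted p of 0.05 (15.7%), 0 by DESeq2 (4.5%) and 4 by voom (17.6%). Between Day 2 and Day 3, neither sex had a call among the members or among all genes (0% of 16232 and 16974), also by DESeq2 and voom for the members, with 2 male and 1 female member under an unadjusted p of 0.05 (8.69 and 3.99% of all genes). In males Amn was lower in every Day 3 mouse than in every Day 2 mouse, as were 3.12% of all genes. By values alone, 2 members (Cubn, Ocrl) were higher and 2 (Amn, Folr1) lower in every male Day 2 mouse than in every Day 0 mouse (12.3 and 12% of all genes). Likewise 2 members were higher and 2 lower in every male Day 3 mouse than in every Day 0 mouse (20.9 and 17.4% of all genes), 2 were lower in females at Day 3 (9.16%) and 6 were lower in males at Day 5 (16.1%).

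The Day 3 calls changed when 1 mouse was left out, together with the share of all genes called, while the folds kept their sign. In males the log2 fold change stayed between 0.55 and 0.75 for Cubn, -1.06 and -0.71 for Amn and -1.24 and -0.60 for Folr1, and in females between -1.70 and -1.35 for Amn and -1.87 and -1.28 for Folr1. In males, 0 members were called without Day 3 mouse 2, 3 or 4, 1 without Day 3 mouse 1 or Day 0 mouse 1 or 2, 4 without Day 0 mouse 3 and 5 without Day 0 mouse 4. The shares of all genes called ran from 4.18 to 7.98% without a Day 3 mouse and from 14.2 to 38.6% without a Day 0 mouse. In females, 4 members were called without Day 0 mouse 4, the library whose long genes were high, and 0 without any other mouse, where all genes had 39.1% called without Day 0 mouse 4 and 0 to 3.15% without another mouse.

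Other cell types differed at Day 3 as well. Between male Day 3 and Day 0 the summed marker levels did not overlap for podocytes (373 to 449 CPM against 153 to 285 CPM, 2 of 5 genes rose), endothelium (352 to 371 CPM against 201 to 291 CPM, 1 of 6 rose), adipocytes (234 to 307 CPM against 469 to 2337 CPM, 4 of 5 fell), the distal convoluted tubule (208 to 470 CPM against 697 to 828 CPM, 3 of 4 fell) and macrophages (114 to 149.97 CPM against 157 to 277 CPM, 3 of 9 fell). The other marker sums overlapped in males. In females the sums were lower without overlap for adipocytes (376 to 658 CPM against 727 to 1537 CPM, 2 of 5 fell), the distal convoluted tubule (337 to 859.7 CPM against 906 to 1188 CPM, 1 of 4 fell) and macrophages (119 to 139 CPM against 144 to 278 CPM, 2 of 9 fell). The part of these cell types in the changes of the members was not tested.

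The Day 3 changes ran with gene length over the whole table. At male Day 3 the median log2 fold change of all genes went from -0.49 for genes of 1 to 2 kb and -0.22 for 2 to 3 kb, through 0.21 for 5 to 8 kb, to 0.53 for the 777 genes of 12 kb or more, and 43.5% of these longest genes were called higher. Cubn (0.65) and Lrp2 (0.44) were thus 0.11 above and 0.09 below the median of their class, whereas Folr1 was 0.85 and Amn 0.46 below theirs. Clcn5 was 0.61, Lrpap1 0.37 and Dab2 0.15 below the median of their class, and Ocrl was 0.20 above. At female Day 3 the class medians went from -0.45 to 0.38, and 7 members were below the median of their class, by 0.32 for Dab2 up to 1.46 for Folr1. With offsets for gene length and GC content in the fit, an alternative added after the values were seen, the log2 fold change of Cubn at male Day 3 was 0.03 (adjusted p = 0.94), that of Amn -0.52 (adjusted p = 0.0981) and that of Folr1 -0.78 (adjusted p = 0.126). In females these fits gave -0.99 for Amn (adjusted p = 0.0623) and -1.32 for Folr1 (adjusted p = 0.0657), so no Day 3 call of a member was left in either sex. With the offsets 1643 of 15908 genes were called at male Day 3 (10.3%) and 0 of 17065 at female Day 3. Over the 24 libraries of Days 0, 2 and 3, the correlation of a library's difference between long and short genes with the log2 CPM was 0.91 for Ocrl, -0.85 for Folr1, -0.84 for Amn and 0.20 for Lrp2, as a description of points that share libraries and groups. The 5 falls of male Day 5 kept their calls under the offsets, with log2 fold changes of -2.44 (Amn), -1.34 (Dab2), -1.62 (Clcn5), -1.79 (Lrpap1) and -2.34 (Folr1).

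**Figure D2:**
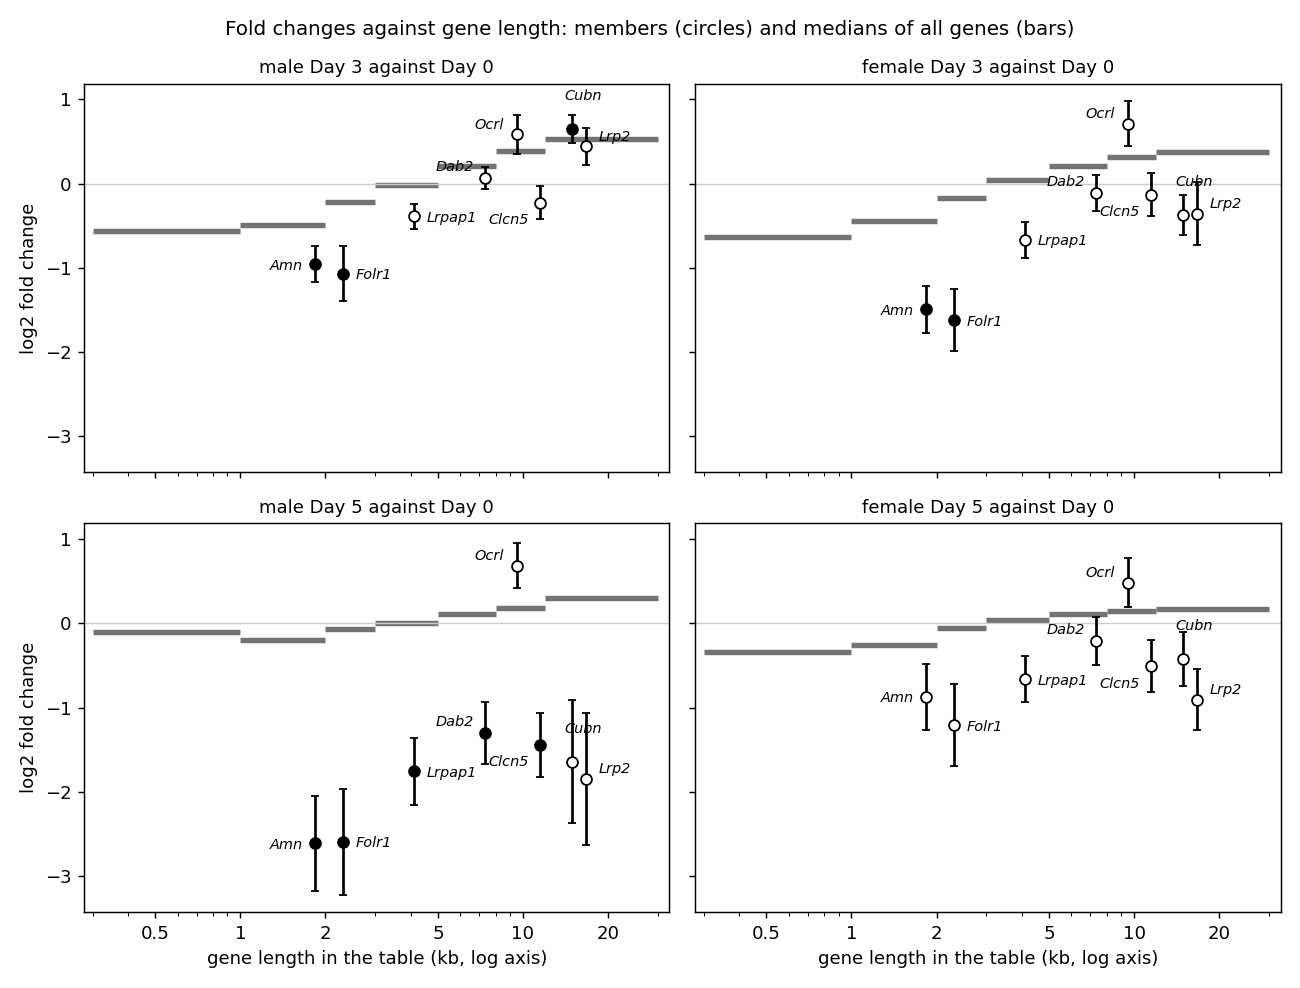
Log2 fold change against Day 0 (vertical axis) by gene length in kb (log axis) for the 8 members, with SE bars, filled where the test was passed, and grey bars at the median of all genes tested in each length class. At Day 3 the grey bars climb with length, from -0.49 at 1 to 2 kb to 0.53 at 12 kb or more in males, and at male Day 5 every member but Ocrl lies 1.41 to 2.52 below them.

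The largest changes were in the Day 5 males, also against Day 3. From Day 3 to Day 5, 6 of 8 members fell in males, with 37.9% of 15654 genes called and 17.1% called lower, by 2.26 (Cubn, SE 0.752), 1.62 (Amn, SE 0.496), 1.34 (Dab2, SE 0.344), 1.18 (Clcn5, SE 0.336), 1.34 (Lrpap1, SE 0.351) and 1.49 (Folr1, SE 0.504) on the log2 scale, with adjusted p between 0.0161 and 0.0435. Lrp2 was lower by a like amount, with a log2 fold change of -2.26 and a larger SE of 0.811, and did not pass the test (adjusted p = 0.0522). In 7 of the 8 genes the Day 5 males did not overlap the Day 3 males, and 25.2% of all genes were lower without overlap. In females 0 were called from Day 3 to Day 5 (0% of 16794 genes), 0 were under an unadjusted p of 0.05 (11.7% of all genes) and none were called by DESeq2 or voom.

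The male Day 5 values turned on mouse 1. Without this library 7 of 8 members fell against Day 0, where 26% of all genes were called, with log2 fold changes of -3.38 (adjusted p = 0.00105) for Lrp2 and -3.15 (adjusted p = 0.000618) for Cubn. Those of Amn, Folr1, Lrpap1, Clcn5 and Dab2 were -3.49, -3.39, -2.26, -1.97 and -1.80. Against Day 3, the fit without it gave 7 falls among 55.2% of all genes called, with -3.83 for Lrp2 and -3.80 for Cubn. Leaving out mouse 2 or mouse 4 of that group left 0 calls of members against Day 0 (5.38 and 6.79% of all genes), leaving out mouse 3 left 1 (5.9%), and leaving out Day 0 mouse 1 or 2 left 2 or 1 (6.77 and 6.4%). Against Day 3, 0 were called without Day 5 mouse 2 (24.2%).

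Other kidney cell types moved unequally with these falls. The proximal tubule marker list, which shares no gene with the members, summed to 14305 CPM in male Day 5 mouse 1 and to 2382 to 4115 CPM in mice 2 to 4, against 25129 to 31982 CPM at male Day 0, and 11 of its 22 genes fell and none rose, with a median log2 fold change of -2.03. Its defining sodium-phosphate transporter Slc34a1 was at 1870, 466, 241 and 181 CPM, against 4976 to 5690 CPM at Day 0, and fell by 2.93 (SE 0.735, adjusted p = 0.0256) on the log2 scale. The medians were 0.04 for 7 thick ascending limb genes (1 fell), 0.51 for 4 distal convoluted tubule genes (0 called), 0.34 for 9 collecting duct genes (3 rose), 0.05 for 5 podocyte genes (0 called) and 0.67 for 6 endothelial genes (2 rose). They were 0.06 for 9 macrophage genes (1 fell), 0.79 for 6 fibroblast genes (2 rose) and 0.92 for 8 injured tubule genes (2 rose). The fibroblast genes summed to 340 to 1529 CPM at Day 5 against 196 to 847 CPM at Day 0, and overlapped. Of the markers of neighbouring tissue, 5 adipocyte genes summed to 883 to 4817 CPM against 469 to 2337 CPM, overlapping and with no call, 7 hepatocyte genes summed to 15.3 to 44.9 CPM against 22.7 to 61.5 CPM, overlapping and with no call, and 4 of 5 adrenal cortex genes (Cyp11a1, Cyp11b1, Cyp21a1 and Hsd3b1 of that list were at 0 in some libraries of the study) rose, from summed levels of 0.730 to 17.5 CPM to 31.6 to 160.5 CPM. Without mouse 1, 21 of 22 proximal tubule genes fell, with a median of -3.25, and Slc34a1 fell by 4.11 (SE 0.446, adjusted p = 0.000645), where 11.4% of all genes were called higher and 14.5% lower. The medians were then -0.54 for the thick ascending limb, 0.34 for the collecting duct, 0.80 for endothelium, 0.31 for macrophages, 1.05 for fibroblasts and 1.07 for injured tubule genes. They were -0.10 for podocytes (2 of 5 genes fell), 0.53 for the distal convoluted tubule (0 called) and -1.22 for hepatocyte genes (0 called). Of 5 genes each, 2 adipocyte and 2 adrenal cortex genes rose. The sums of mice 2 to 4 were then above Day 0 without overlap for fibroblasts (909.7 to 1529 CPM) and adipocytes (2565 to 4817 CPM). The part of these, and of the mitochondrial share, in the changes of the members was not tested.

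Set against the mean log2 CPM of these 22 proximal tubule genes in the same library, every member but Dab2 and Ocrl overlapped its Day 0 values at male Day 5. For Lrpap1 the overlap came from mouse 1 alone (-0.26), and mice 2 to 4, at 0.32 to 0.93, were above the Day 0 males at -0.70 to 0.16. The log2 level of Lrp2 minus that of the list was 0.58, 0.59, 0.89 and 0.55 in Day 0 males and 1.25, 0.59, 0.41 and -0.13 in Day 5 males, overlapping, while the list itself was lower by 2.67. Cubn, Amn, Folr1, Clcn5 and Lrpap1 also overlapped, with mean differences of 0.16, -0.33, -0.21, 1.04 and 0.70. Dab2 was at -1.16, -1.15, -0.73 and -0.82 at Day 0 and at -0.49, -0.13, 0.87 and 0.48 at Day 5, all higher. Ocrl went from between -6.16 and -5.36 to -4.31, -2.43, -1.27 and -1.73. By this measure 62.3% of all 18220 genes were higher without overlap at male Day 5 and 0.115% were lower. Without mouse 1, Dab2, Ocrl and Lrpap1 were higher without overlap, as were 89.3% of all genes, and the other 5 members overlapped. At male Day 3, where the list was lower by only 0.02, Cubn and Ocrl were higher without overlap (17.6% of all genes) and Amn and Folr1 lower (8.78%). At female Day 3, where the list was lower by 0.56, Amn (-0.84) and Folr1 (-0.90) overlapped Day 0, and of the 8 members Ocrl alone was apart, 1.37 higher, as were 26.5% of all genes.

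**Figure D3:**
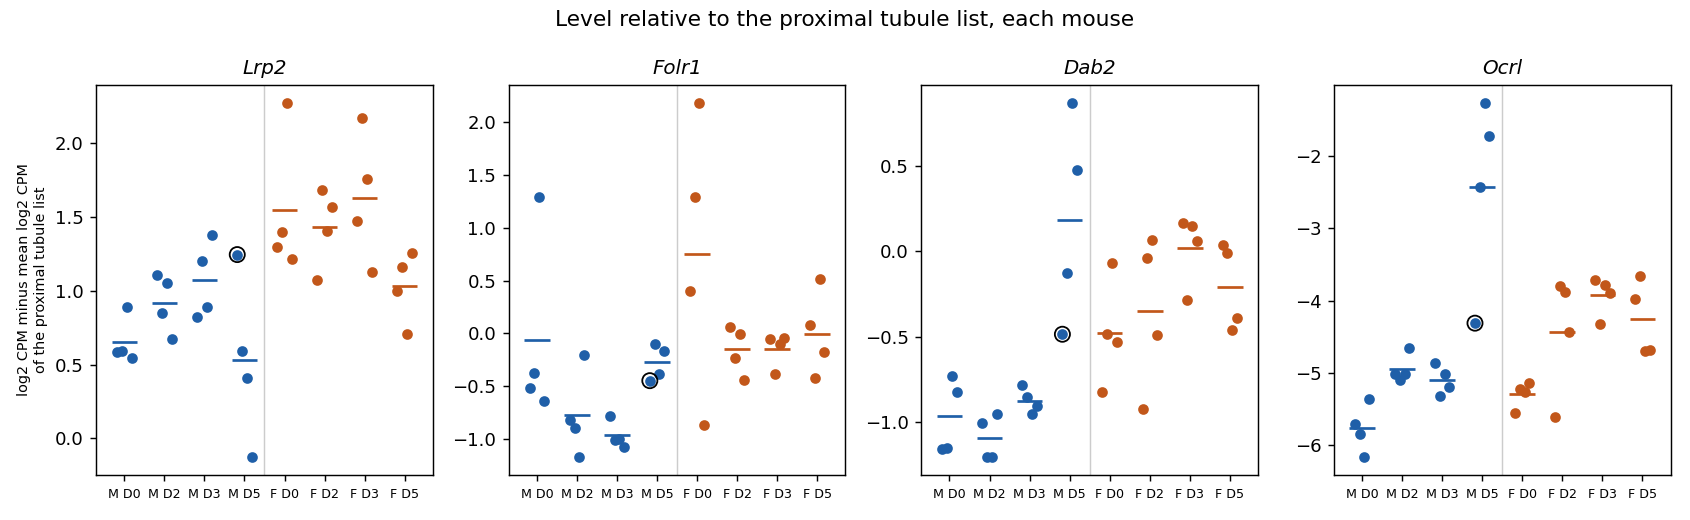
Log2 CPM of Lrp2, Folr1, Dab2 and Ocrl minus the mean log2 CPM of 22 proximal tubule genes in the same library, by mouse and group, with bars at the group means and male Day 5 mouse 1 circled. In Day 5 males Lrp2 (-0.13 to 1.25) and Folr1 overlap Day 0, and Dab2 and Ocrl lie above it.

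Few members were called between the sexes with all mice in the fit. At Day 0, Day 2 and Day 5, 0 of 8 members were called between males and females, with 0.449, 1.47 and 0.276% of all genes called. At an unadjusted p of 0.05 there were 0, 0 and 4 members (8.04, 15 and 20.3% of all genes), DESeq2 called 0, 0 and 2 (2.71, 5.12 and 6.92%), and voom 0, 1 and 7 (25.1, 19.3 and 29.8%). At Day 3, Amn was higher in males by 0.37 on the log2 scale (SE 0.0926, adjusted p = 0.0211), at 156 to 170.4 CPM against 108 to 141 CPM, with 21.3% of 16673 genes called, 10.6% higher in males, and 14.8% higher there without overlap, and this call was absent without male mouse 2, 3 or 4 or female mouse 3. Relative to the mean of the proximal tubule list, which was 1.14 higher in males on the log2 scale, Amn was lower in males at Day 3, with a log2 difference of -0.74. All members but Lrp2 (-0.56, overlapping) were then lower in males without overlap, as were 69.2% of all genes. Already at Day 0 the list was 0.60 higher in males on the log2 scale. Relative to it, Lrp2 (-0.90) and Cubn (-0.98) were lower in Day 0 males without overlap, as were 9.98% of all genes. The other members overlapped there. Of the 7 hepatocyte genes 4 were called lower and 1 higher in males at Day 3, and their part was not tested. At Day 0, Cubn was at 203 to 271 CPM in males and 273 to 380.1 CPM in females, which 2.74% of all genes matched in being lower without overlap in males. Without female Day 3 mouse 2, 6 members were higher in males at Day 3 (34.6% of all genes called either way), among them Lrp2 by 0.94 (adjusted p = 0.026) and Cubn by 0.82 (adjusted p = 0.0019). Without male Day 5 mouse 1, 7 members were lower in males at Day 5 (17% of all genes called), with log2 differences of -2.75 for Lrp2 and -3.08 for Cubn. The difference between the sexes in the change from Day 0 was called in 0 members at Day 2, Day 3 and Day 5 (0, 0.0114 and 0.243% of all genes), with 0, 1 and 3 under an unadjusted p of 0.05 (4.23, 7.11 and 15.2%), 0 by DESeq2 at each day (0.12, 0.466 and 4.05%), and 1, 3 and 6 by voom (10.6, 12.1 and 32.6%). Without male Day 5 mouse 1 it was called in 6 members at Day 5 (6.74% of all genes), with values of -2.51 for Lrp2 and -2.77 for Cubn.

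Among the treated mice of Days 2 and 3, low Lrp2 went with high Cdkn1a, which did not hold at Day 5. In 3 of the 4 groups the mouse with the most Cdkn1a had the least Lrp2: male Day 2 mouse 4 (257 and 700.4 CPM), female Day 2 mouse 3 (358 and 639 CPM) and male Day 3 mouse 1 (145 and 889 CPM). In the female Day 3 group the lowest Lrp2 was in mouse 4 (575 CPM), which had 322 CPM of Cdkn1a, second to mouse 1 with 347 CPM, and mouse 2, with the least Cdkn1a (22.0 CPM), had the most Lrp2 (1759 CPM). At Day 5, by contrast, the mouse with the least Cdkn1a had the least Lrp2 in either sex. These were male mouse 4 (28.4 and 45.1 CPM) and female mouse 2 (107 and 397 CPM). Over the 24 libraries of Days 0, 2 and 3 the correlation of the log2 levels was -0.73 for Lrpap1, -0.65 for Folr1, -0.58 for Amn, -0.53 for Lrp2, -0.44 for Dab2, -0.38 for Clcn5 and -0.25 for Cubn, and of the opposite sign for Ocrl, at 0.50. Mice of one group share their time and treatment, and these values were not tested. Slc34a1 was also lowest in the mouse with the most Cdkn1a in each of the 4 groups, at 2471 CPM in male Day 2, 1238 CPM in female Day 2, 2988 CPM in male Day 3 and 1120 CPM in female Day 3.

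**Figure D4:**
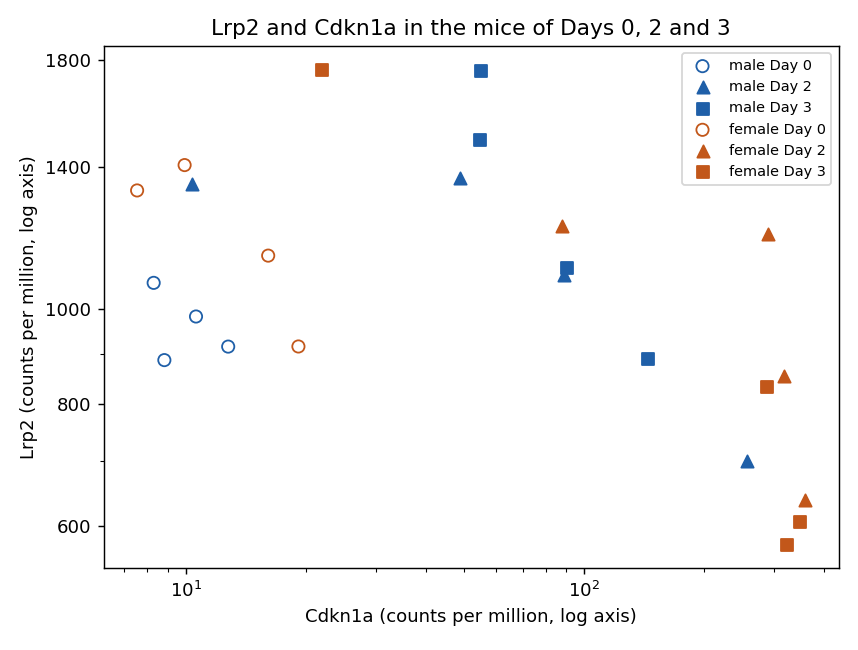
Lrp2 against Cdkn1a in CPM (log axes) for the 24 mice of Days 0 (open circles), 2 (triangles) and 3 (squares), males in blue and females in orange. Mice with over 250 CPM of Cdkn1a had 575 to 1193 CPM of Lrp2, and female Day 3 mouse 2, at 22.0 CPM of Cdkn1a, had 1759 CPM.

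The wider endocytic pathway had calls of either sign at male Day 3, where 11.4% of all genes were called higher and 13.1% lower. Of 19 adaptor and coat genes tested, 3 rose (Myo6, Cltc and Appl1) and 5 fell, with a median log2 fold change of 0.04 against 0.02 for all genes. Ap2s1, the small subunit of the clathrin adaptor AP-2, fell by 1.5 (SE 0.343, adjusted p = 0.02) in males and by 1.75 (SE 0.391, adjusted p = 0.0479) in females. Of 21 sorting and recycling genes 1 rose and 4 fell, with a median of -0.05. Of 21 genes of endosome acidification 0 rose and 7 fell, with a median of -0.20. Among them the proton pump subunits Atp6v1f and Atp6v1g1 fell by 1.03 (SE 0.223, adjusted p = 0.0174) and 0.84 (SE 0.177, adjusted p = 0.0165) in males and by 1.23 (SE 0.290, adjusted p = 0.048) and 0.83 (SE 0.188, adjusted p = 0.0479) in females. Of 16 lysosomal genes 1 rose and 3 fell, and the cholesterol carrier Npc2 fell by 0.86 in males (SE 0.214, adjusted p = 0.0257) and 1.08 in females (SE 0.258, adjusted p = 0.048). With the offsets for length and GC the male counts were 1 fall of the coat genes, 1 of sorting, 2 of acidification and 4 of the lysosome, and no rise, and no gene of the table was called at female Day 3.

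Related receptors and ligands had calls as well, beside the same 11.4% higher and 13.1% lower of all genes in males and 1.26% higher and 4.28% lower in females. Of 15 LDL receptor family and scavenging receptors tested at male Day 3, 3 rose and none fell: Sorl1 (0.71, adjusted p = 0.00598), Lrp4 (1.19, adjusted p = 0.0373) and Lrp12 (0.94, adjusted p = 0.0226), a median of 0.48. With the offsets 1 rose. Of 18 genes of ligands and vitamin handling 2 rose and 7 fell. Lcn2, which encodes a filtered ligand of megalin and is induced in injured tubules, rose by 3.53 (SE 0.735, adjusted p = 0.0155) in males and 4.40 (SE 0.808, adjusted p = 0.0465) in females. The falls took in the carriers Rbp4 (-2.94, adjusted p = 0.0119) and Ttr (-1.67, adjusted p = 0.017). Of 10 genes of receptor folding and cleavage 3 fell, among them the gamma-secretase subunit Psenen, by 1.26 in males (SE 0.274, adjusted p = 0.0174) and 1.45 in females (SE 0.318, adjusted p = 0.0478). With the offsets 0 of the folding and cleavage genes were called at male Day 3, and 2 of the ligand list rose and 5 fell. The rule for naming pathway genes took those called the same way in both sexes at Day 3, and the other pathway genes given here were picked after their values were seen. At female Day 3 the calls in these lists were those of Ap2s1, Atp6v1f, Atp6v1g1, Npc2, Lcn2 and Psenen. Leaving out 1 mouse moved the male Day 3 counts between 0 and 4 rises and 0 and 5 falls for the coat genes, 0 and 10 falls for acidification and 1 and 6 rises for the LDL receptor family, and the female falls for acidification between 0 and 8.

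At male Day 5, where 8.98% of all genes were called higher and 10.2% lower, the medians of these lists were below 0 and nearer to 0 than the median of the members. The median log2 fold change was -0.43 for the coat genes (4 of 19 fell), -0.35 for sorting (7 of 20 fell), -0.62 for acidification (4 of 21 fell), -0.98 for the lysosome (8 of 16 fell) and -0.72 for ligands and vitamin handling (7 of 17 fell and Lcn2 rose). The folate transporter and vitamin B12 carrier genes Slc46a1 (-1.55, adjusted p = 0.0158) and Tcn2 (-2.82, adjusted p = 0.0162) were among them. Among the scavenging receptors Lrp8 (1.80, adjusted p = 0.0299) and the HDL receptor Scarb1 (1.29, adjusted p = 0.0148) rose, and the fatty acid receptor Cd36 (-1.18, adjusted p = 0.0291) and the IgG and albumin receptor Fcgrt (-1.36, adjusted p = 0.0175) fell. Among transcription factors of the proximal tubule Rxra (-1.0, adjusted p = 0.0145) fell, and Hnf4a was at -1.56 (adjusted p = 0.0698). The falls of the lysosomal list went from 0 to 9 and those of acidification from 0 to 10 when 1 mouse was left out. Without male Day 5 mouse 1 the falls were 7 for the coat genes, 7 for sorting, 10 for acidification, 9 for the lysosome and 7 for the ligands, and Hnf4a was called lower (-2.44, adjusted p = 0.000915). The LDL receptor family then had 3 rises and 3 falls, and the lysosome and the ligands 1 rise each. Receptor folding and cleavage and the transcription factors had 4 falls each. In that fit 11.4% of all genes were called higher and 14.5% lower. At male Day 2, with 1.81% of all genes called higher and 1.35% lower, acidification and ligands had 2 falls each, the LDL receptor family and the transcription factors 1 rise each, and no other list of the pathway had a call. With the offsets acidification and the transcription factors had 0 calls there, and the LDL receptor family and the ligands 1 fall each. At female Day 2 no pathway list had a call (1.93% of all genes), and at female Day 5 the ligand list had 1 fall (0.0738% of all genes called lower). With the offsets the LDL receptor family and the ligands had 1 fall each at female Day 2, and the ligands 1 rise and 1 fall at female Day 5.

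Over all 32 libraries the members other than Ocrl were all alike in level. Their pairs had Pearson r of log2 CPM between 0.741 (Dab2 with Folr1) and 0.978 (Amn with Folr1), and Ocrl was at -0.649 to -0.0809 with them. Lrp2 was most like Cubn among 18220 genes (Pearson r = 0.974 of log2 CPM), then Paqr9 (0.965) and B3gat2 (0.963), and Cubn was most like Ak4 (0.979), Lrp2 (0.974) and Sgk2 (0.967). Amn was most like Folr1 (0.978), Apom (0.975) and Dao (0.972), and Folr1 was most like Khk (0.981), Tcn2 (0.98) and Akr7a5 (0.979). Lrpap1 was most like Fads3 (0.974) and Cgref1 (0.972). The nearest genes of Dab2 were C2cd2l (0.967), Hnf4a (0.959) and Slc2a2 (0.958), and those of Clcn5 were Enpp5 (0.939), Slc16a12 (0.937) and Slc6a8 (0.935). Ocrl was most like Trim56 (0.945), Syne1 (0.936) and Zfp955b (0.935).

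These values describe libraries that share groups. Without male Day 5 mouse 1, over 31 libraries, the values for these genes differed by at most 0.003. Without Day 5, over 24 libraries, the correlation of Lrp2 with Cubn was 0.83 and that of Amn with Folr1 was 0.956. Lrp2 with Amn went from 0.805 over 32 libraries to 0.147 over 24, and Cubn with Amn from 0.837 to 0.191. Amn was at 0.889 with Lrpap1 and at -0.865 with Ocrl over the 24 libraries. Amn, Folr1 and Lrpap1, the 3 shortest members, were alike there, and so were Lrp2 and Cubn, the 2 longest.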

How the data were processed

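Total RNA from kidneys was sequenced by the authors as 150-base paired reads. The deposited table holds raw read counts per gene, for which the submitters' processing notes name HTSeq, and FPKM values that the authors derived from these counts and gene lengths. The submitters' processing notes name mouse build GRCm39, whereas the study's methods and the coordinates in the table are those of GRCm38. Counts were tested here with edgeR 4.0.16 (R 4.3.3, TMM scaling, filterByExpr, robust quasi-likelihood fit) on the 2 groups of each comparison, or 4 for an interaction, with Benjamini-Hochberg adjustment over all genes tested and a call at an adjusted p of 0.05. Mice are separate animals. SE is the log2 fold change divided by the root of F. CPM used TMM factors over 32 libraries, and log2 levels a prior count of 2. Total counts of 16502107 to 35961325 per library limit precision by counting error only for the lowest values. The fits were tested on simulated data.

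The members and lists were chosen with earlier results of these data known. The 8 members are named throughout, with up to 3 genes per pathway list called the same way in both sexes at Day 3 and the 3 genes most like each member, of which 1 is not reported here. Alternatives were DESeq2 1.42.0, its size factors, limma 3.58.1 voom with quality weights, other filters, a log2 fold change of over 1.5 as well (the study's threshold), 1 fit over all groups, a replicate block, removal of mitochondrial genes, each mouse left out, and, added after seeing the data, offsets by gene length and GC and the list, ratio and likeness values without male Day 5 mouse 1. Mouse numbers were not taken as pairs in the main fits. The FPKM values were used for levels between genes only.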

Additional observations from a re-analysis of the deposited data

Results flagged for a closer look

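In 7 of the 64 groups of 4 mice (8 genes in 8 groups) 1 mouse lay apart from the other 3 by the gap test of Dixon, which chance gives in about 5% of groups. Male Day 5 mouse 1 was the high one in 4 of them. It had 776 CPM of Lrp2 against 45.1 to 146 CPM in the other 3, 230.4 CPM of Cubn against 19.0 to 40.9 CPM, 121 CPM of Amn against 20.8 to 34.0 CPM, and 68.1 CPM of Clcn5 against 21.9 to 24.8 CPM. This is the library with 4153 counts of Xist under a male label and 42.5% mitochondrial counts, and the part of either in its values was not tested.

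At Day 0, female mouse 4 had 418 CPM of Dab2 against 248 to 260.3 CPM, male mouse 4 had 385 CPM of Lrpap1 against 526 to 545 CPM, and male mouse 3 had 1171 CPM of Folr1 against 403 to 504 CPM.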

How the results depend on the processing

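The counts of members called by edgeR moved with the setting, and the cause was not tested. With voom and quality weights 5 were called at male Day 2, 5 at male Day 3, 8 at male Day 5, 4 at each of female Day 2, Day 3 and Day 5, 1, 6 and 7 between the sexes at Day 2, Day 3 and Day 5, and 1, 3 and 6 for the interaction at these days, while it called 46.4, 57.2 and 54.9% of all genes at male Day 2, Day 3 and Day 5, 50.3, 47.9 and 17.6% at these days in females, 19.3, 43 and 29.8% between the sexes and 10.6, 12.1 and 32.6% for the interaction. DESeq2 called 3 at male Day 2 (18.3% of all genes), 3 at female Day 3 (21.2%), and 2 between the sexes at Day 3 (25.9%) and 2 at Day 5 (6.92%), and its size factors in edgeR gave 1 at female Day 3 (2.53%). With 1 fit over all 8 groups the counts were 1 at male Day 2, 0 at male Day 3, 8 at male Day 5, 1 at female Day 2, and 0 and 5 between the sexes at Day 3 and Day 5, with 12.9, 19.5, 31.1, 21.8, 0.988 and 9.69% of all genes called. With a log2 fold change of over 1.5 as well they were 0 at male Day 3, 3 at male Day 5, 2 from male Day 3 to Day 5, 1 at female Day 3 and 0 between the sexes at Day 3, with 3.72, 7.53, 9.64, 2.48 and 1.93% of all genes. Without a filter on low counts 2 were called from male Day 3 to Day 5 (18.5%). With the offsets by length and GC there were 0 at male and 0 at female Day 3 and 2 between the sexes at Day 3 (10.3, 0 and 18.7%). Removal of the mitochondrial genes left all 17 counts as they were, and a minimum of 10 counts in every library left 16, with 7 in place of 6 from male Day 3 to Day 5 (Lrp2, adjusted p = 0.0497). Counts within 1.5 times those of edgeR were otherwise taken as alike and most are not listed here, such as 7 at male Day 5 with the block.

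The replicate block gave 0 members at male Day 3, 0 at female Day 3 and 2 between the sexes at Day 3 (0.566, 0 and 17.6% of all genes). The mouse numbers were not taken as pairs, since in no comparison did every pair of same-numbered mice correlate above 0.1 in their deviations from the group means. The nearest was between the sexes at Day 0, with 3 of 4 pairs. There mice 1, 3 and 4 correlated at 0.27, 0.44 and 0.48 with the same number of the other sex, and mouse 2 at -0.07. Why these controls were alike was not tested. With the block at male Day 5, Lrp2 was at -2.80 (adjusted p = 0.0455) and Cubn at -2.51 (adjusted p = 0.0453), and with it the sex differences at Day 2 turned to 0.069 for Amn and 0.085 for Folr1.

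Leaving out each mouse in turn gave 0 to 2 members at male Day 2, 0 to 5 at male Day 3, 0 to 7 at male Day 5, 0 to 7 from male Day 3 to Day 5, 0 to 2 at female Day 2, 0 to 4 at female Day 3, 0 to 1 at female Day 5, 0 to 6 and 0 to 7 between the sexes at Day 3 and Day 5, and 0 to 6 for the interaction at Day 5. It gave 0 in each of the other 7 comparisons.

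The log2 values that turned sign under an alternative were these, and none of them had been called. With the offsets, Lrp2 was at -0.36 and Cubn at -0.0027 at male Day 2, Lrp2 at -0.20 and Dab2 at -0.28 at male Day 3, Clcn5 at -0.10 from male Day 2 to Day 3 and Dab2 at -0.11 in females, Cubn at 0.24, Dab2 at 0.10 and Ocrl at 0.0023 from female Day 3 to Day 5, and between the sexes Amn at 0.12 and Dab2 at -0.023 at Day 0, Amn at 0.26, Clcn5 at -0.17 and Folr1 at 0.17 at Day 2, and Clcn5 at -0.090 at Day 3. With voom, Clcn5 was at 0.060 at male Day 3, 0.37 at female Day 2 and 0.27 at female Day 3, Dab2 at 0.020 at female Day 3, Cubn at 0.12 from female Day 2 to Day 3, Lrpap1 at 0.037 from female Day 3 to Day 5, and between the sexes at Day 2 Amn at 0.33, Dab2 at 0.081, Clcn5 at -0.073 and Folr1 at 0.34. The interaction of Ocrl was then at -0.26 at Day 2 and -0.057 at Day 5. Lrpap1 from female Day 3 to Day 5 was at 0.00091 with the size factors of DESeq2 and 0.0012 with its test, and Clcn5 between the sexes at Day 2 at -0.011 without the filter.

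Leaving out 1 mouse turned the sign of these further log2 values, of which none had been called. The range of Clcn5 was -0.035 to 0.098 from male Day 2 to Day 3, -0.20 to 0.19 at female Day 2 and -0.26 to 0.14 at female Day 3. That of Dab2 was -0.17 to 0.10, -0.19 to 0.10 and -0.38 to 0.011 at female Day 2, Day 3 and Day 5. Ocrl ranged from -0.017 to 0.19 from male Day 3 to Day 5. From female Day 2 to Day 3 the ranges were -0.54 to 0.13 for Lrp2, -0.40 to 0.083 for Cubn, -0.064 to 0.067 for Dab2, -0.075 to 0.043 for Clcn5 and -0.013 to 0.20 for Ocrl, and from Day 3 to Day 5 -0.35 to 0.17 for Cubn, -0.28 to 0.023 for Dab2 and -0.13 to 0.12 for Lrpap1. Between the sexes at Day 0 they were -0.036 to 0.28 for Dab2, -0.041 to 0.45 for Clcn5, -0.054 to 0.41 for Ocrl, -0.21 to 0.028 for Lrpap1 and -0.72 to 0.10 for Folr1. At Day 2 they were -0.23 to 0.37 for Amn, -0.11 to 0.046 for Dab2, -0.058 to 0.076 for Clcn5, -0.037 to 0.17 for Lrpap1 and -0.19 to 0.37 for Folr1, and at Day 3 -0.017 to 0.12 for Clcn5. The interaction ranged from -0.074 to 0.51 for Amn, -0.43 to 0.017 for Clcn5, -0.27 to 0.21 for Ocrl and -0.12 to 0.66 for Folr1 at Day 2, from -0.058 to 0.23 for Dab2, -0.37 to 0.081 for Clcn5 and -0.47 to 0.0052 for Ocrl at Day 3, and from -0.15 to 0.35 for Ocrl at Day 5.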
